A study of Mus musculus with 4 samples.

Results

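The transcript table of the hippocampal RNA-seq experiment held 5961 abundant transcript models that the authors' processing had assembled from reads and that carried no gene symbol. They were chosen by their counts and fields in the deposited table alone: the identifier of the row began with MERGE, the symbol field held a dash, and each of the 4 libraries had at least 100 counts. These 5961 models were part of 15398 assembled models and of 103309 rows in all. The other 87911 rows were Ensembl transcripts, of which 17222 had at least 100 counts in each library. Because the rule used the counts, the level of the models is described here without a test.

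Hippocampal RNA was sequenced from wild-type C57BL/6 mice aged 12 months, with 2 libraries per group. Control mice were untreated and had neither anesthesia nor an operation, and surgery mice had an exploratory laparotomy under sevoflurane, with ropivacaine given along the incision for analgesia, and were sampled on postoperative day 3. All mice were anesthetized when the hippocampus was taken. No source used here says that the 2 libraries of a group came from separate mice, so every p below is set against a spread between samples that may not be one between mice.

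Transcript assembly joins aligned, spliced reads into candidate RNAs, whether or not an annotation lists them. In brain such models are often alternative forms of known genes, with other exons, starts or polyadenylation sites, and long 3′ ends are common in neurons. Others are long noncoding RNAs or pieces of incompletely joined transcripts. When several models overlap, a read can fit more than one of them, and a counting program has to divide reads among the models.

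The fields for symbol, reference gene and position held a dash in all 15398 assembled models, and the gene table of 31060 rows held 0 of them. A model is therefore described below by its identifier, its length, its level and its behaviour across libraries, and no gene, position, exon or sequence is assigned to it. The length was recovered from the ratio of count to FPKM (fragments per length of transcript and library total), and for 5951 of the 5961 models it lay within 0.1 base of a whole number. An identifier such as MERGE.28576.7 has a first number, here 28576, that several models can share, and a second number for the single model. The sources used here do not state how these numbers were given. Under the 5961 models were 4171 first numbers, and 2130 of the models were the only model listed under their number, while 3831 shared it with at least 1 other model. In 2729 of the 4171 numbers the second numbers ran past the count of models listed. Of the 2130 models listed alone, 1133 had 1 as their second number. What the missing second numbers stood for is not stated. A model called alone below, and a sum over a number, therefore refer to the listed models only. Number 4104 had the most abundant models, 14 of them, and the counts summed over these 14 were 9811 and 11739 in control and 9525 and 11923 in surgery.

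Transcript counts totalled 69394548 to 75437127 per library, 3.85 to 3.91 times the gene counts of 18002695 to 19318085, so a transcript count is an estimate rather than a number of independent reads and no counting interval was formed from it. The abundant models took 16.4% and 16.0% of the transcript counts in control and 15.5% and 16.3% in surgery. Markers of hippocampal excitatory neurons, 6 genes, summed to between 5274 and 6617 CPM (counts scaled to the library total) in the 4 libraries. One control library stood apart in tissue content: the 5 choroid plexus markers summed to 50.4 CPM in control 1 and to 3475, 3603 and 4508 CPM in control 2, surgery 1 and surgery 2. Ttr, the transthyretin gene, made up most of this sum, at 19.8 CPM in control 1 and between 3231 and 4245 CPM in the others, and Kcnj13 was at 0 in control 1, where each of the 5 markers was lowest. The mitochondrially encoded genes held 5.25% and 4.51% of gene counts in control and 6.32% and 6.61% in surgery.

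The abundant models were long RNAs. Their median length was 3966 bases, with quartiles of 2558 and 6103 bases and a range from 211 to 29587. Ensembl transcripts held to the same 100 counts had a median of 2944.5 bases. Among the models, 347 were over 10000 bases (5.82%, against 1.56% of those Ensembl transcripts) and 204 were under 1000 bases (3.42%, against 10.5%). A fixed minimum of counts is reached more easily by a long RNA, so levels were also read per length. On the CPM scale, which does not correct for length, the median level was 12.0 in both sets. On the FPKM scale, which does, it was 3.00 for the models and 4.54 for the Ensembl transcripts. At the same minimum of counts a shorter RNA needs a higher FPKM, and the Ensembl transcripts were shorter. This difference can therefore be partly set by the rule.

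Level and length went together in opposite ways on the 2 scales. A shorter model needs a higher FPKM to reach 100 counts, so the FPKM part of this is at least partly built into the rule. In the shortest 25% of the models, with a median length of 1822 bases, the median level was 5.97 CPM and 3.90 FPKM. In the longest 25%, with a median length of 8045.5 bases, it was 23.1 CPM and 2.57 FPKM. Few models were very abundant: 246 had a mean of 100 CPM or more, and 4 had 1000 CPM or more. Models that shared their number were longer more often, with 280 of 3831 over 10000 bases against 67 of the 2130 that stood alone.

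At the threshold itself, 25 models had a lowest count of exactly 100. MERGE.10496.4 had 186 and 456 counts in control and 505 and 100 in surgery. MERGE.12168.1 had 242 and 100 in control and 146 and 378 in surgery, and MERGE.13514.11 had 100 and 1807 in control and 2727 and 1161 in surgery. These 3 models were inside the rule by a single library. Just outside it were MERGE.11230.1, with counts of 184, 99, 299 and 236, MERGE.11259.2, with 134, 124, 276 and 99, and MERGE.11869.1, with 138, 99, 216 and 145, in the order control 1, control 2, surgery 1 and surgery 2. A minimum of 50 counts would have taken 7035 models, and a minimum of 200 would have taken 4664.

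MERGE.27715.1 was the most abundant model on both scales, with a length of 2153 bases and no other model under its number. It had 3737 and 4005 CPM in control and 5678 and 5366 CPM in surgery, and per length it averaged 2152 FPKM. Both surgery libraries were above both controls. Its log2 fold change of surgery against control was 0.51 (SE 0.062, n = 2 per group), with an unadjusted p of 0.00202 and a Benjamini-Hochberg adjusted p of 0.407 in edgeR's quasi-likelihood test across all transcripts. The mitochondrial share of gene counts was also higher in both surgery libraries (values above), and its part in this difference was not tested. In bulk tissue, more RNA of one kind per cell and more cells that hold it cannot be told apart.

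The next models by mean CPM differed little between groups or varied within them. MERGE.3109.2 (4716 bases, alone under its number) had 1598 and 1296 CPM in control and 1414 and 1259 CPM in surgery. MERGE.26989.3 (2219 bases) had 1328 and 1190 CPM in control and 1085 and 1404 CPM in surgery. In both models the groups overlapped, and the unadjusted p of edgeR was 0.473 and 0.925. MERGE.15269.1 (8907 bases, alone under its number) had 1143 and 1076 CPM in control and 882 and 1015 CPM in surgery. Both surgery values were below both controls, with a log2 fold change of -0.23 (SE 0.11) and an edgeR p of 0.110 before adjustment.

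Other abundant models differed between the libraries of a group. MERGE.17947.2 (4133 bases) had 441 and 465 CPM in control but 132 and 1880 CPM in surgery, so the surgery libraries lay on opposite sides of the controls. MERGE.28417.2 (4268 bases) had 690 and 519 CPM in control and 1157 and 619 CPM in surgery, and MERGE.17507.3 (10606 bases) had 840 and 415 CPM in control and 866 and 661 CPM in surgery. In these 3 the groups overlapped. MERGE.6288.4 (11722 bases) had 767 and 800 CPM in control and 556 and 1014 CPM in surgery, with 1 surgery library below and 1 above the controls.

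MERGE.3472.2 (3831 bases) was at 12.0 CPM in control 1 and at 988, 880 and 988 CPM in control 2, surgery 1 and surgery 2. The other model under its number, MERGE.3472.12, had counts of 972 in control 1 and 4323, 4908 and 6715 in the others. The libraries that were low and high were those that were low and high in the choroid plexus markers (50.4 CPM against 3475 to 4508 CPM), whose part in this result was not tested. Its fold change of surgery against control rested on that library: the log2 value was 0.90 (SE 1.92) with all libraries, -0.08 without control 1 and 6.27 without control 2.

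**Figure D1:**
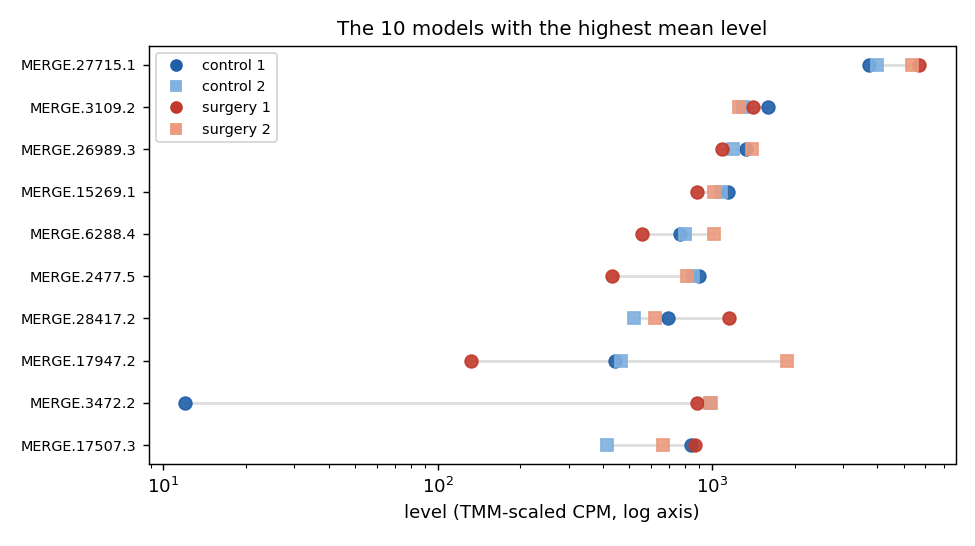
The level of the 10 models with the highest mean is plotted in TMM-scaled CPM on a log axis, 1 point per library, with control in blue and surgery in red and a grey line from the lowest to the highest library. MERGE.27715.1 stands alone at 3737 to 5678 CPM, and MERGE.3472.2 has control 1 at 12.0 CPM, far from its other 3 libraries.

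Per length, the order after MERGE.27715.1 brought up shorter models. MERGE.185.2, with 624 bases, averaged 922 FPKM, with 828 and 937 FPKM in control and 653 and 1271 FPKM in surgery. MERGE.15308.1, with 481 bases, had 470 and 478 FPKM in control and 354 and 318 FPKM in surgery. MERGE.4089.2, with 946 bases, had 450 and 527 FPKM in control and 267 and 391 FPKM in surgery. The first of these 3 overlapped between groups, and both others were lower in both surgery libraries, with an unadjusted edgeR p of 0.0389 for MERGE.15308.1 and 0.0997 for MERGE.4089.2. MERGE.27740.1, with 844 bases and a mean FPKM between those of MERGE.185.2 and MERGE.4089.2, had 446 and 377 FPKM in control and 373 and 457 FPKM in surgery, with overlapping groups and an unadjusted edgeR p of 0.744. These 4 are the next by mean FPKM after MERGE.27715.1 and MERGE.26989.3, which is described above, and they were chosen after their values were seen.

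Surgery was compared with control to ask which models differed 3 days after the operation. All 5961 models passed the filter on low counts and were tested with edgeR among 65665 transcripts. No model passed a Benjamini-Hochberg adjusted p under 0.05 (0 of 5961, against 0.00% of all tested transcripts in each direction), and the smallest adjusted p was 0.407. Before adjustment, 162 models were higher and 174 lower at an edgeR p under 0.05, together 5.64% (all tested transcripts: 2.69% higher and 3.30% lower). limma-voom called 0 models after adjustment. Before it, at p under 0.05, limma-voom called 441 of the 5961 models, a larger share than its 5.45% of all tested transcripts. DESeq2 called 49 models higher and 39 lower after adjustment, against 1.92% and 2.24% of the transcripts to which it gave an adjusted p.

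The thresholds of the study, applied to the edgeR fit as an unadjusted p under 0.01 and a fold of at least 2, were passed by 44 models that were higher in surgery (0.738%, against 0.870% of all tested transcripts) and by 41 that were lower (0.688%, against 1.09%). Both shares were below those of all tested transcripts. Ensembl transcripts with at least 100 counts passed at 0.319% in each direction. Both directions together gave 85 models, where 1.96% of all tested transcripts passed. DESeq2 called 88 models after adjustment, where 4.16% of the transcripts with an adjusted p were called, and 66 models were in both lists. For the runs without 1 library, which follow, the shares of all tested transcripts are not given here. Leaving out control 1 left 31 higher and 21 lower, and leaving out control 2 left 23 higher and 24 lower. Leaving out surgery 1 or surgery 2 gave 30 or 39 higher and 37 or 53 lower.

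The size of the difference was modest in the typical model. The median log2 fold change of the models was 0.034, against -0.0057 over all tested transcripts. The median size regardless of direction was 0.39 on the log2 scale, against 0.53 over all tested transcripts and 0.28 over Ensembl transcripts with at least 100 counts. A fold of at least 2 in either direction was estimated for 976 models, 16.4% of them, against 27.9% of all tested transcripts and 8.74% of Ensembl transcripts with at least 100 counts. Both surgery libraries were above both controls in 1241 models (20.8%, against 18.1% of all tested) and below them in 1061 (17.8%, against 19.3%). In Ensembl transcripts with at least 100 counts these shares were 20.7% above and 19.1% below. Over 4 groups of 25% by length, from shortest to longest, the median log2 fold change was 0.0067, 0.017, 0.032 and 0.070, and 10, 21, 25 and 29 models passed the thresholds of the study. The shares of all tested transcripts of like length are not given here. The median level also rose with length, from 5.97 CPM in the shortest group to 23.1 CPM in the longest. These counts are therefore not read as an effect of length or as particular to the models. The median over all models changed sign without surgery 2, to -0.0050, and was 0.10 without control 1.

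**Figure D2:**
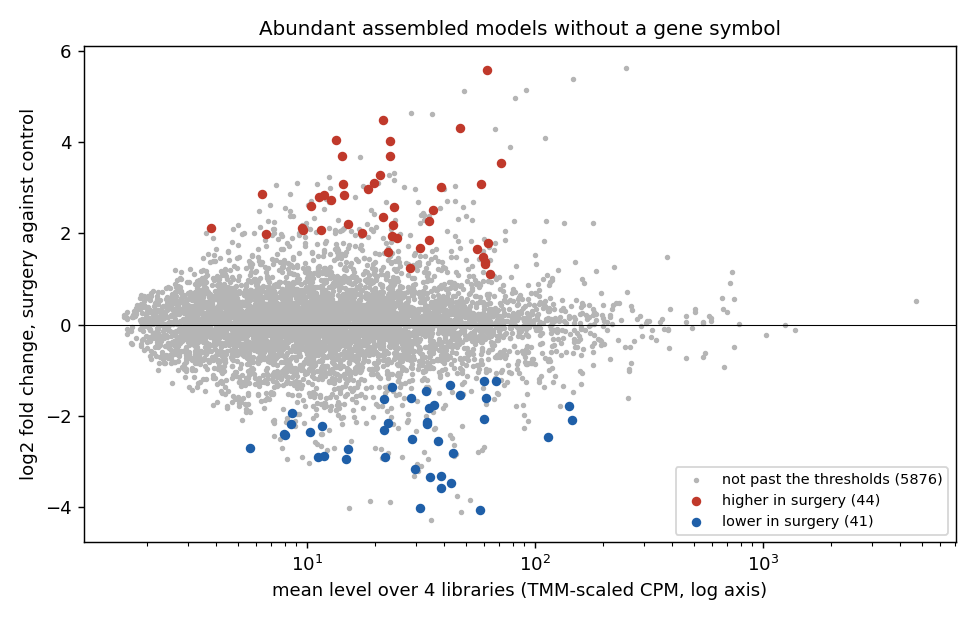
Each of the 5961 models is 1 point, with its mean level over the 4 libraries in TMM-scaled CPM on a log axis and its log2 fold change of surgery against control. The 44 models higher and the 41 lower at the thresholds of the study (red and blue) have means of 146 CPM (MERGE.11960.2) or less, and grey points of like fold, such as MERGE.2477.6 at 5.61, did not pass.

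Among the 44 higher models the median log2 fold change was 2.44, the largest 5.58 and the median length 5365.5 bases, and 9 were alone under their number. MERGE.9378.3 (7758 bases) had the smallest p. It had 218 and 150 counts in control and 9426 and 7832 counts in surgery, which is 2.54 ± 0.63 CPM against 121 ± 12.0 CPM (SD, n = 2). Every surgery count was far above every control count, the log2 fold change was 5.58 (SE 0.33) and the edgeR p was 0.000179 before and 0.407 after adjustment. The counts summed over the 3 models under number 9378 moved with it, from 447 and 354 in control to 9680 and 8707 in surgery, a log2 fold change of 4.54 (SE 0.23).

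Of the 9 higher models that stood alone under their number, MERGE.4612.6 and MERGE.22648.3 were among those named by smallest p. MERGE.4612.6 (5843 bases) had 561 and 666 counts in control and 4172 and 5618 in surgery, a log2 fold change of 3.03 (SE 0.32). MERGE.22648.3 (2059 bases) had 500 and 507 counts in control and 3447 and 2467 in surgery, a log2 fold change of 2.57 (SE 0.31). The control libraries were close to each other in both, and the unadjusted edgeR p was 0.00131 and 0.00194. Without control 1 or control 2 neither p was under 0.01, and without surgery 1 that of MERGE.22648.3 was 0.0117.

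In several other higher models named by smallest p, the sum under the number differed between groups by less than the model. MERGE.27957.4 (3698 bases) had 138 and 130 counts in control and 3187 and 2720 in surgery, a log2 fold change of 4.48 (SE 0.30), and the sum of its 7 models had a log2 fold change of 1.03 (SE 0.28). MERGE.10613.1 (5395 bases) had 306 and 300 counts in control and 2348 and 2346 in surgery, a log2 fold change of 2.98 (SE 0.28). MERGE.10613.6 under the same number passed in the same direction, with 2348 and 1705 counts in control and 6925 and 6755 in surgery. The sum of the 5 models of number 10613 went from 4929 and 4833 to 10235 and 9330 counts, a log2 fold change of 1.02 (SE 0.14) with an unadjusted edgeR p of 0.00291. Here the sum passed the thresholds too.

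MERGE.19292.2 was among the longest models at 15705 bases, with 827 and 727 counts in control and 4753 and 3943 in surgery and a log2 fold change of 2.51 (SE 0.24). The sum with its 1 other model went from 3855 and 3434 to 7903 and 5987 counts. MERGE.4998.3 (3660 bases) had 856 and 845 counts in control and 3939 and 4153 in surgery, a log2 fold change of 2.28 (SE 0.23), while the sum of number 4998 was 24807 and 16486 in control and 18522 and 13559 in surgery. This sum overlapped between the groups, with a log2 fold change of -0.34 (SE 0.27). MERGE.18015.3 (3316 bases) had 105 and 119 counts in control and 2412 and 1227 in surgery, and MERGE.18015.5, outside the rule, had 6959 and 2404 in control and 0 and 0 in surgery. Their number summed to 7064 and 2523 counts in control and 2412 and 2028 in surgery, lower where the abundant model was higher.

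Among the 41 lower models the median log2 fold change was -2.32, the lowest -4.07 and the median length 4234 bases, and 7 were alone under their number. MERGE.27052.17 (3538 bases) had the smallest p of them. It had 7451 and 8213 counts in control and 405 and 510 in surgery, or 108 ± 8.93 CPM against 6.46 ± 1.25 CPM (SD, n = 2), a log2 fold change of -4.07 (SE 0.27) with an edgeR p of 0.000281 before and 0.407 after adjustment. The 13 models of number 27052 summed to 25254 and 25777 counts in control and 24170 and 21442 in surgery, a log2 fold change of -0.14 (SE 0.11). Both surgery sums lay below both control sums. Under the same number MERGE.27052.2, outside the rule, had 28 and 323 counts in control and 6576 and 4364 in surgery.

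For 1 of the 10 lower models named by smallest p, MERGE.4620.3 (3751 bases), no other model was listed under the number. It had 1838 and 1973 counts in control and 238 and 250 in surgery, a log2 fold change of -2.94 (SE 0.31) and an unadjusted edgeR p of 0.00133. Its replicates were close in both groups, yet its p was above 0.01, up to 0.0134, without any 1 of the 4 libraries. MERGE.25649.1 (3348 bases) had 3604 and 4960 counts in control and 232 and 286 in surgery, a log2 fold change of -4.02 (SE 0.36). The sum with MERGE.25649.2, which had 1693 counts in control 1 and 0 in the other 3 libraries, was 5297 and 4960 in control and 232 and 286 in surgery, and its log2 fold change of -4.28 (SE 0.27) was as large as that of the single model.

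MERGE.11960.2 (7745 bases) was the most abundant of the lower models, at 252 and 221 CPM in control and 48.9 and 61.8 CPM in surgery. Its log2 fold change was -2.09 (SE 0.20), and the sum with its 1 other model had a log2 fold change of -0.92 (SE 0.14). MERGE.20138.8 (7701 bases) had 5785 and 4622 counts in control and 411 and 438 in surgery, and MERGE.715.9 (6180 bases) had 4176 and 3567 in control and 391 and 451 in surgery. Both were lower by a log2 fold change beyond -3, at -3.59 (SE 0.27) and -3.17 (SE 0.28), and the sums under their numbers were lower too, at -1.05 (SE 0.24) and -1.44 (SE 0.38). MERGE.21428.2 (7964 bases) had 13873 and 14147 counts in control and 2053 and 2934 in surgery, a log2 fold change of -2.46 (SE 0.28), and MERGE.18195.3 (3055 bases) had 6447 and 7508 in control and 1753 and 1541 in surgery, a log2 fold change of -2.06 (SE 0.21). The sums under these numbers differed less, with a log2 fold change of -0.90 (SE 0.33, unadjusted edgeR p 0.0578) for number 21428 and -0.44 (SE 0.21, unadjusted edgeR p 0.118) for number 18195. MERGE.18195.1, the only other model of number 18195, had 2858 and 2926 counts in control and 4580 and 6453 in surgery.

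**Figure D3:**
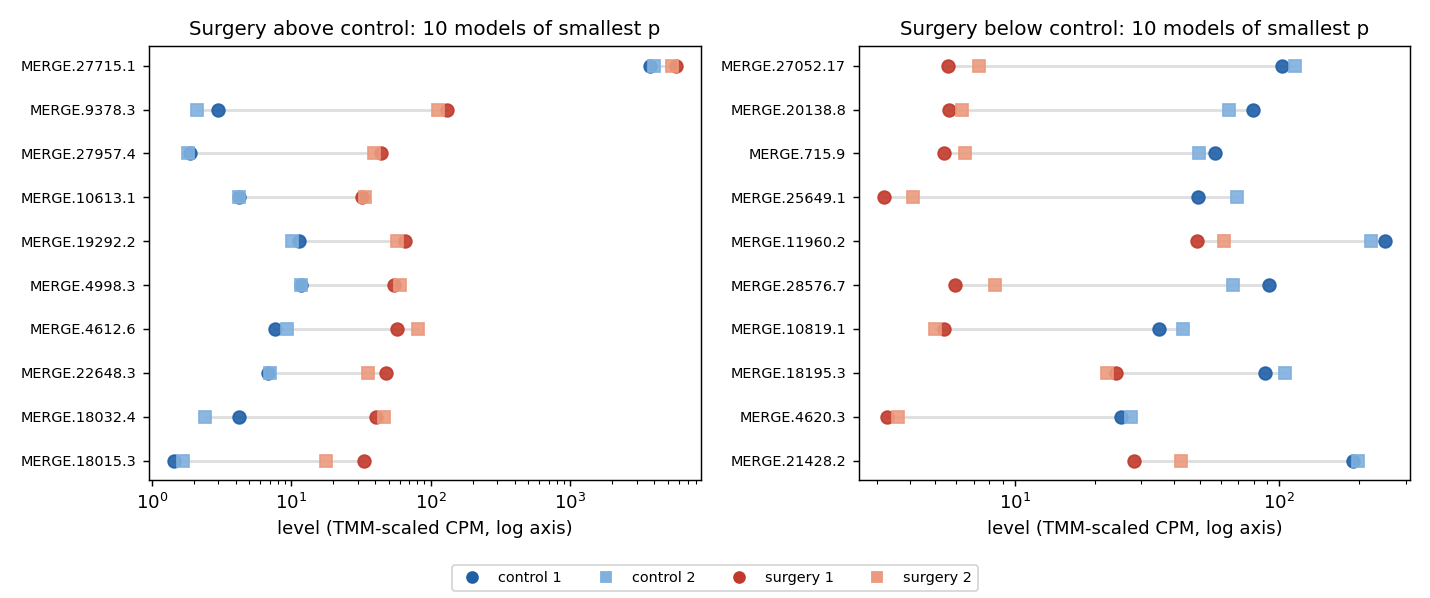
The 10 models higher and the 10 lower in surgery with the smallest p are plotted in TMM-scaled CPM on log axes, 1 point per library, with control in blue and surgery in red. The 2 libraries of a group lie close together in most models and apart from the other group, as in MERGE.27052.17 at 108 CPM in control and 6.46 CPM in surgery on average.

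These 20 models were named by smallest unadjusted p among models whose groups did not overlap, so their separation is part of how they were named. Of the 10 higher ones 9 passed the thresholds of the study, since the fold of MERGE.27715.1 was under 2, and all 10 lower ones passed. Each of the 20 kept its direction under every alternative run, which the choice of models with separated groups largely set in advance. The number past the thresholds was 4 higher and 8 lower without control 1, 3 and 6 without control 2, 7 and 9 without surgery 1, and 8 and 7 without surgery 2.

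Models under 1 number could differ in opposite directions while their sum hardly differed. Number 28576 is 1 such case. MERGE.28576.7 (4234 bases) had 6637 and 4792 counts in control and 430 and 582 in surgery, a log2 fold change of -3.46 (SE 0.35), and MERGE.28576.1 (11650 bases), outside the rule, had 1 and 1 counts in control and 15608 and 11805 in surgery. The longest model of that number, MERGE.28576.2 (11739 bases), had 27618 and 21412 counts in control and 12070 and 14526 in surgery. All models of the number together had 42648 and 34681 counts in control and 39602 and 36226 in surgery, a log2 fold change of -0.0058 (SE 0.14). The groups overlapped in the sum and lay apart in each of these 3 models.

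Number 10819 showed the same in smaller counts. MERGE.10819.1 (7670 bases) had 2547 and 3096 counts in control and 393 and 346 in surgery, a log2 fold change of -2.91 (SE 0.30), while the sum of its 4 models was 3906 and 3679 in control and 3679 and 3640 in surgery, a log2 fold change of -0.03 (SE 0.17). The sum differed by less than the spread between the control libraries. Under number 18032 a pair of abundant models of 5336 and 5059 bases changed places. MERGE.18032.4 had 308 and 172 counts in control and 2915 and 3183 in surgery, and MERGE.18032.8 had 2603 and 2730 in control and 725 and 460 in surgery. Both passed the thresholds of the study, in opposite directions, and the sum of the 7 models had a log2 fold change of 0.27 (SE 0.17). This sum did not overlap between groups, at 57.7 and 56.0 CPM in control and 65.1 and 71.7 CPM in surgery.

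The 85 passing models fell under 78 first numbers, and 7 of these numbers held a pair of them. In 3 of them, numbers 9963, 18032 and 26847, one was higher and the other lower, and in 4, numbers 311, 10613, 27701 and 27835, both went the same way. MERGE.26847.1 (12282 bases) had 3052 and 2806 counts in control and 6039 and 6346 in surgery. MERGE.26847.2 (12445 bases), the only other model of that number, had 6502 and 5611 in control and 2390 and 2660 in surgery. Their sum was 9554 and 8417 counts in control and 8429 and 9006 in surgery, so a difference of over 2-fold in each model was absent from the sum.

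Of the 78 numbers, 62 held more than 1 model, and in 13 of these the sum over the number passed the thresholds of the study. The 69 passing models under these 62 numbers had a median log2 fold change of 2.28 in size, and the sums had a median of 0.71. Since the models were picked for passing, a smaller value in the sum is in part built into this comparison, and it is given as a description. The sums were also fitted for all 4171 numbers among 60687 features, an analysis chosen after seeing the data. After adjustment 0 sums passed in edgeR, with 218 at an unadjusted p under 0.05 (against 5.98% of all features), and 45 passed in DESeq2 (against 2.46%). At the thresholds of the study 30 sums were higher and 26 lower, against 0.821% and 1.01% of all features.

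**Figure D4:**
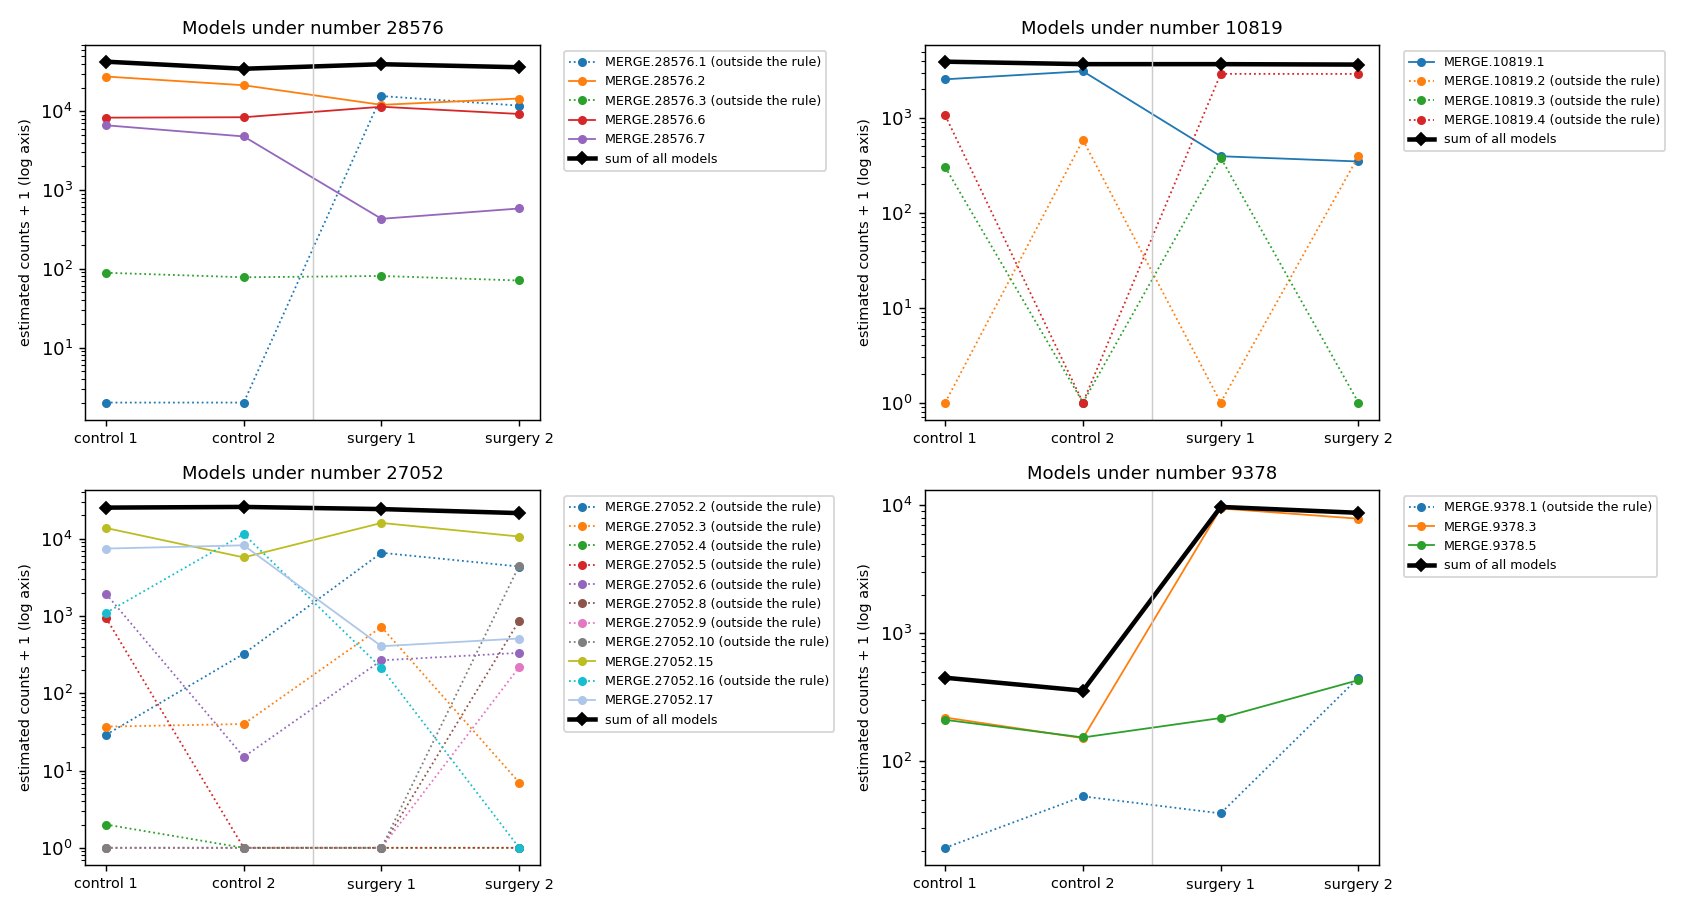
Estimated counts plus 1 are plotted on log axes for each model with a count under 4 first numbers, across the 4 libraries, with solid lines for the abundant models, dotted lines for models outside the rule and a thick black line for the sum. The numbers are the 3 whose sum differed least and the 1 whose sum differed most among those with several models and a model named by smallest p. In 28576, 10819 and 27052 single models cross while the sum differs little, though in 27052 both surgery sums are below both controls. In 9378 the sum moves with MERGE.9378.3, from 447 and 354 to 9680 and 8707 counts.

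The spread between replicates was larger in models that shared their number. The median fold between the 2 libraries of a group was 1.42 in control and 1.47 in surgery for the 3831 models that shared it, and 1.24 and 1.28 for the 2130 that stood alone. Summing all models of a number gave 1.24 and 1.26 over the 2041 numbers with more than 1 model. Ensembl transcripts with at least 100 counts had 1.22 and 1.25, and genes with at least 100 counts, of which there were 11299, had 1.10 and 1.11. A difference of over 2-fold between the control libraries was seen in 23.3% of the 5961 models, 13.9% of those Ensembl transcripts and 0.531% of those genes. In surgery the shares were 24.8%, 14.9% and 0.106%.

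**Figure D5:**
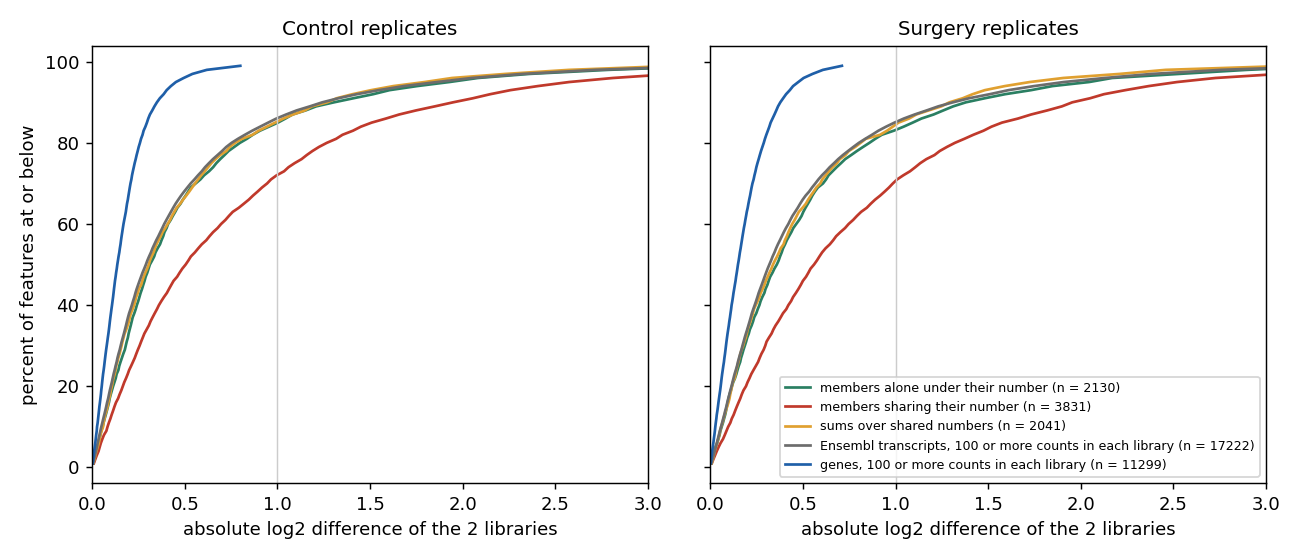
For each set of features, the percent at or below a given absolute log2 difference between the 2 libraries of a group is drawn, with control on the left and surgery on the right and a grey line at a 2-fold difference. Models sharing a number (red) run lowest, with medians of 1.42-fold in control and 1.47-fold in surgery, and genes (blue) run highest, with 1.10-fold and 1.11-fold.

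In 57 models a single library was more than 10-fold below each of the other 3 (0.956%, against 0.569% of Ensembl transcripts with at least 100 counts and 1 of the 11299 genes). The low library was control 1 in 22, control 2 in 12, surgery 1 in 15 and surgery 2 in 8 of them. Control 1 was also the library low in choroid plexus markers (50.4 CPM in sum), whose part in these 22 models was not tested. Among the Ensembl transcripts with at least 100 counts, 98 had such a low library. It was control 1 in 21, control 2 in 32, surgery 1 in 23 and surgery 2 in 22 of them. A single library more than 10-fold above the other 3 was found in 28 models (0.470%), of which 13 had surgery 1 high. Among Ensembl transcripts with at least 100 counts there were 41 (0.238%), of which 16 had surgery 1 high. In 40 of the 57 the other 3 libraries lay within 2-fold of each other. None of the 57 passed the thresholds of the study, and the smallest unadjusted edgeR p among them was 0.244. Each was picked for a gap of over 10-fold inside 1 group of 2 libraries, so this outcome was largely set by the choice.

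MERGE.2469.1 (5922 bases, alone under its number) had 64567 and 63128 counts in control, 1161 in surgery 1 and 63046 in surgery 2, so that surgery 1 was 55.2-fold below the nearest other library on the CPM scale. MERGE.9221.1 (6427 bases) likewise had 17768 and 15951 counts in control and 286 and 17151 in surgery. For control 2, MERGE.22220.3 (2459 bases, alone under its number) had 1477 counts, against 15231 in control 1 and 16108 and 14428 in surgery. MERGE.21660.2 (8899 bases, alone under its number) was low in surgery 2, with 1364 counts against 30204, 20024 and 23660 in the others. Each of the 4 libraries was thus the low one in some models. These examples were chosen after their values were seen.

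A library that was low in 1 model was not always low under the whole number. Of the 40 models whose other libraries lay within 2-fold, 12 stood alone under their number, and the other 28 shared it. Summed over the number, 7 of these 28 kept a library more than 10-fold below the rest, and in 11 all 4 libraries came within 2-fold. MERGE.2477.5 (2635 bases) is a less extreme case among the most abundant models, with 65154 and 60869 counts in control and 31465 and 56367 in surgery. MERGE.2477.6, of 2620 bases, had 743 and 712 counts in control and 63929 and 7264 in surgery. The sum was 65897 and 61581 in control and 95394 and 63631 in surgery, a log2 fold change of 0.34 (SE 0.21), where MERGE.2477.6 alone had 5.61 with an unadjusted edgeR p of 0.0175.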

How the data were processed

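The authors aligned the reads with HISAT2 to mm10 and counted genes with HTSeq, given as version 5.4.2, and the submitters' processing notes name the same tools. The values deposited by the authors were raw counts for genes, estimated counts for transcripts, and FPKM values for both. The estimated counts were whole in the file. The assembler and the transcript counter are not given in the sources used here. FPKM equalled the count divided by length and by the column total.

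The rule was applied to the transcript counts in each library. The quasi-likelihood test of edgeR 4.0.16 in R 4.3.3 compared surgery with control, with TMM factors and filterByExpr (count at least 10, total at least 15), over 65665 transcripts with Benjamini-Hochberg adjustment. CPM is scaled by TMM, and an SE is the log2 fold change divided by the square root of F. The study named a p under 0.01 and a 2-fold cutoff for genes in DESeq2, and also a Bonferroni correction. It does not say whether that p was adjusted. Here these thresholds were applied as an unadjusted p under 0.01 and a fold of at least 2. Named models are the 10 of highest mean CPM, the 10 each way of smallest p with groups not overlapping, since none passed the adjusted threshold, and the 3 on either side of the 100 counts. Models named otherwise share a first number with these or with a passing model, or are said to be chosen after their values were seen. The members and lists were chosen with earlier results of these data known.

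Alternatives were DESeq2 1.42.0, RLE factors, 2 other count filters, a replicate block, limma-voom (limma 3.58.1), limma-trend on log2(FPKM + 1) and log2(FPKM + 0.1), leaving out each library, and minimums of 50 and 200 counts. Sums over a first number were chosen after seeing the data. The fit was run on simulated counts with the spread of the gene table, which does not show what it recovers at the wider spread of the transcripts. Position classes and sequence features were planned and not run, because the models' rows hold a dash for position.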

Additional observations from a re-analysis of the deposited data

How the results depend on the processing

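The count of models higher at the study's thresholds, 44, became 79 with DESeq2, 67 with at least 10 counts in each library, 29 with a minimum of 200 counts for the models, and 23 to 39 when 1 library was left out. The count lower, 41, became 62 with DESeq2, 62 with at least 10 counts, 26 with models summed by number, and 21 to 53 when 1 library was left out. After adjustment 0 passed in edgeR and 49 higher and 39 lower in DESeq2, against 162 and 174 before adjustment in edgeR. The median log2 fold change, 0.034, was -0.016 on log2(FPKM + 1), -0.021 on log2(FPKM + 0.1) and -0.0050 to 0.10 with 1 library left out, when the median over all tested transcripts ran from -0.11 to 0.056. For DESeq2, the other count filter and the runs without 1 library, the share of all tested transcripts at these thresholds is not given here. Those counts are therefore not read as particular to the models. The cause of the changes was not tested.

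With the replicate number as a block, 15 models were higher and 16 lower, and the share of all tested transcripts in that fit is not given here. The labels share numbers 1 and 2 between groups, but same-numbered libraries did not deviate together (correlation of deviations 0.014 over the models and 0.018 over 44894 transcripts), so the numbers were not taken to pair the samples.

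MERGE.6288.4, at a log2 fold change of 0.0026, turned to -0.0038 with at least 10 counts, -0.061 under the block, -0.070 in limma-voom and -0.12 on both FPKM scales. With 1 library left out, the log2 fold change changed sign in 8 of the abundant models named by the rule, all with overlapping groups (models named otherwise were not followed), over ranges of -0.26 to 0.048 (MERGE.3109.2), -0.22 to 0.16 (MERGE.26989.3), -0.50 to 0.37 (MERGE.6288.4), -1.78 to 2.05 (MERGE.17947.2), -0.076 to 6.27 (MERGE.3472.2), -0.14 to 0.89 (MERGE.17507.3), -1.63 to 0.71 (MERGE.10496.4) and -0.23 to 1.42 (MERGE.12168.1).

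The planned classes of position, with 5 and 20 kb limits, could not be run. What limits these values is 2 libraries per group and counts that are estimates.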

Other observations

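Outside the rule, 5035 assembled models were at 0 in at least 1 library. Of the 9437 models outside the rule, 25 had at most 10 counts in both controls and 1000 or more in both surgery libraries, and 42 had the reverse. By the same limits 22 and 37 of the 87911 Ensembl transcripts were found, a much larger set. Of these 67 models, 31 shared their first number with an abundant model.

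MERGE.26913.1 (5371 bases) had 20347 and 12256 counts in control and 0 and 0 in surgery, and no abundant model under its number. MERGE.4924.1 (4728 bases) had 0 and 2 counts in control and 13155 and 9898 in surgery, also with no abundant model under its number. MERGE.4740.15 (4943 bases) had 7950 and 8596 counts in control and 0 and 0 in surgery, with 2 abundant models under its number. These 3 were chosen after their values were seen, and their groups were separated by how they were picked. In another such choice, MERGE.6288.11 (13559 bases) had 65352 and 72304 counts in control, 0 in surgery 1 and 36543 in surgery 2, under the same number as MERGE.6288.4.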
